A study of Mus musculus with 8 samples.

Results

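The comparison described here set LPS-treated Tut7-/- bone marrow-derived macrophages (BMDMs) against LPS-treated wild-type BMDMs, and asked which transcripts differed when the terminal uridylyltransferase TUT7 was missing from macrophages that had met endotoxin. Its members are 4 of the 8 RNA sequencing libraries of the series, 2 for each genotype, chosen by their sample labels. All 24539 gene symbols of the count table were taken, of which 11501 passed a filter on low counts and were tested. The Tut7-/- macrophages came from C57BL/6 male mice of 7 weeks. In these mice Tut7 had been deleted by CRISPR/Cas9 with a pair of guide RNAs, against the first and the 26th intron. The wild-type macrophages came from C57BL/6 males of the same age. Marrow cells of both genotypes were grown in medium conditioned by L929 cells, kept overnight with M-CSF and given LPS for 4 h. The remaining 4 libraries, untreated Tut7-/- and untreated wild-type BMDMs with 2 libraries each, were handled alike without LPS and serve as the reference for what LPS adds. Whether replicates stand for different mice or cultures is not stated in the labels. P values therefore measure no more than how far these libraries spread, and that spread may be technical.

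TUT7 adds uridines to the 3′ ends of RNAs, including mRNAs whose poly(A) tails have become short and precursors of let-7 microRNAs, and an oligouridine tail marks many of these RNAs for decay. LPS is sensed by TLR4 on macrophages, which switches on NF-κB, MAP kinases and, through an endosomal branch, type I interferon. Within hours the cells make cytokines and chemokines from mRNAs that are mostly short-lived. How long these mRNAs last is set by RNA-binding proteins, among them the endonuclease Regnase-1, encoded by Zc3h12a, which cleaves stem-loops in the 3′ UTRs of Il6 and other inflammatory mRNAs.

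The 4 LPS-treated libraries held 3767900 to 9394632 counts, the fewest in wild-type replicate 2. Replicates correlated in log2 CPM with a Pearson coefficient of 0.988 for LPS-treated Tut7-/- and 0.98 for LPS-treated wild-type BMDMs, and 0.969 for untreated Tut7-/- and 0.981 for untreated wild-type BMDMs. Levels are given as CPM, counts scaled by library size and TMM. Differences are log2 fold changes, Tut7-/- over wild-type, and a value with ± is a log2 fold change with its standard error (SE). The 10 macrophage markers, which include Lyz2, Csf1r, Adgre1 and Cd68, summed to 21759 and 24146 CPM in the Tut7-/- libraries and 18894 and 19003 CPM in the wild-type libraries. Of 10 neutrophil markers 4 were at 0 in all 4 libraries, among them Ly6g, Mpo and Elane, and their sum was 2.61 to 6.86 CPM. Of 10 lymphocyte markers 4 were at 0, and 3 of 5 mast cell markers were at 0. The 10 erythroid and megakaryocyte markers summed to 64.4 and 66 CPM in the Tut7-/- libraries and 102 and 102 CPM in the wild-type libraries. The 5 endothelial markers summed to 118 and 114 CPM in Tut7-/- and 110 and 103 CPM in wild-type. Rn45s, the precursor of ribosomal RNA, took 0.026% and 0.0374% of the counts in the Tut7-/- libraries and 0.0135% and 0.0157% in the wild-type libraries. It was itself called higher in Tut7-/- BMDMs, as was Lars2, the mitochondrial leucyl-tRNA synthetase, and the part of this in the results below was not tested.

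At an adjusted p under 0.05, 161 of 11501 tested genes were called, a background of 1.4%. Of these, 72 were higher (0.626%) and 89 lower (0.774%) in LPS-treated Tut7-/- BMDMs than in their wild-type counterparts. Counts of called list members below are read against these shares. The test was the quasi-likelihood test of edgeR, adjusted by Benjamini-Hochberg, in 1 model of all 8 libraries. The lower genes had a median log2 fold change of −1.51 and reached −6.48, and the higher genes had a median of 1.25 and reached 2.32. In all 161 the Tut7-/- and wild-type libraries did not overlap, which was also true of 55.7% of all tested genes (35.7% higher and 20% lower). When the 4 LPS-treated libraries were fitted alone, 1580 of 10088 genes were called (15.7%), 568 higher (5.63%) and 1012 lower (10%), and these included all 161. DESeq2's size factors in place of TMM gave 54 higher and 138 lower, and the median over all tested genes was 0.0024 with these factors, against 0.1 with TMM.

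**Figure D1:**
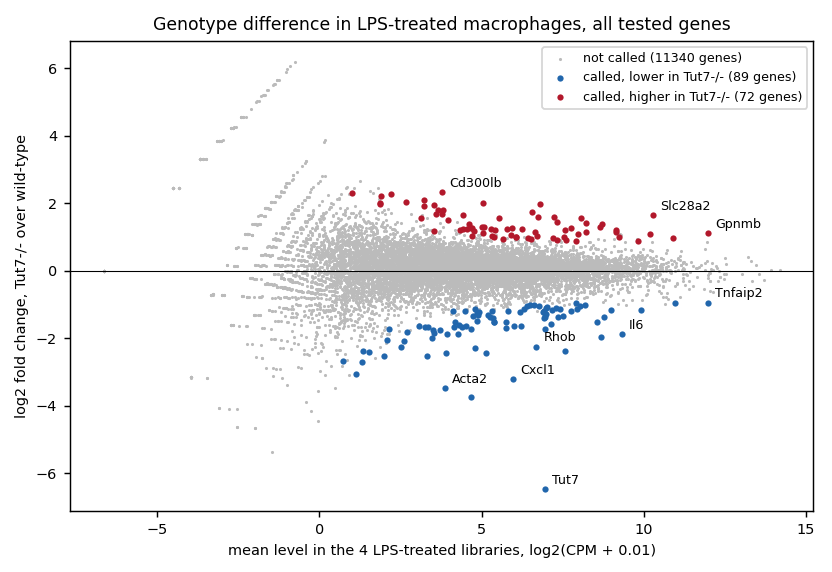
Each point is 1 of 11501 tested genes, with its mean level in the 4 LPS-treated libraries on the x axis, as log2(CPM + 0.01), and its log2 fold change, Tut7-/- over wild-type, on the y axis. The 89 lower genes (blue) reach −6.48 at Tut7 itself, while the 72 higher genes (red) stay at or under 2.32.

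Leaving out 1 LPS-treated library reduced the number of calls strongly, to 32 without Tut7-/- replicate 1, 16 without Tut7-/- replicate 2, 15 without wild-type replicate 1 and 14 without wild-type replicate 2. Of the 161 genes, 10 passed in each of these 4 fits, and all 10 were lower in Tut7-/- cells. They were Tut7, Etohd2, Cxcl1, Cxcl2, Cxcl3, Plat, Rhob, Acta2, Col1a2 and Hspbap1. Another 23 passed in 1 to 3 of the 4 fits, and 128 in none, although the direction was kept by every 1 of the 161 in each of the 4 fits. Hspbap1, which encodes an HSP27-associated protein, was at 10.1 and 8.65 CPM in Tut7-/- and 48.3 and 43.9 CPM in wild-type (−2.3 ± 0.3, adjusted p = 0.0011). Of the 15 highest and 15 lowest called genes with a mean of at least 20 counts, those not described below had log2 fold changes of −2 for Cacng8, 2.09 for Lhfpl2, 1.98 for Lrrc27, 1.8 for Tmem104, 2.03 for Tmigd3 and 1.91 for Zranb3. Lhfpl2 and Tmem104 passed in 1 of the 4 fits and the other 4 in none (adjusted p up to 0.54).

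Tut7, which the table lists as Zcchc6, spans chr13:59771876-59823169 in mm10. There were 18 and 19 counts of it in the LPS-treated Tut7-/- libraries, against 1162 and 716 counts in the LPS-treated wild-type libraries, which matches the labels. This is 2.85 and 2.61 CPM in Tut7-/- and 253 and 235 CPM in wild-type, at −6.48 ± 0.27, adjusted p = 2.2e-09. Etohd2, whose interval of 59769966 to 59773680 overlaps that of Tut7, had 26 and 22 counts in Tut7-/- libraries, against 240 and 131 counts in wild-type libraries (−3.74 ± 0.32, adjusted p = 2.5e-05). Use of the strand in counting is not stated in the labels or methods, so reads of Etohd2 and Tut7 cannot be told apart. The other 4 tested genes within 500 kb did not pass: Isca1 gave 0.5 ± 0.25, adjusted p = 0.44, Golm1 0.6 ± 0.38, adjusted p = 0.56, Naa35 0.46 ± 0.26, adjusted p = 0.5 and Agtpbp1 −0.45 ± 0.28, adjusted p = 0.54. Among the other terminal nucleotidyltransferases, Zcchc11, which encodes the paralog TUT4, was at 41.9 and 30.9 CPM in Tut7-/- and 69.4 and 76 CPM in wild-type, so the genotypes did not overlap, at −1 ± 0.25, adjusted p = 0.065. Zcchc11 was called lower in 8 of 13 alternative settings other than leaving out a library. Papd4 and Papd7, which encode poly(A) polymerases of the same family, had log2 fold changes of −0.35 (adjusted p = 0.53) and −0.2 (0.78).

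Chemokines that draw neutrophils were among the genes that fell furthest. Of 25 chemokine ligands tested, 4 fell and 0 rose, where 0.774% of all tested genes fell and 0.626% rose. The median log2 fold change was −0.27 over the list, against 0.1 over all tested genes. Cxcl1, a ligand of CXCR2, was at 12.5 and 12.2 CPM in Tut7-/- and 122 and 106 CPM in wild-type. The next in size was Cxcl3, at 63.6 and 59.6 CPM in Tut7-/- and 319 and 324 CPM in wild-type. Cxcl2 was at 157 and 177 CPM in Tut7-/- and 713 and 589 CPM in wild-type. For all 3 the higher Tut7-/- library stayed well under the lower wild-type library, and the replicates of a genotype lay close together. Their log2 fold changes were −3.21 (SE 0.27, adjusted p = 2.5e-05), −2.38 (SE 0.21, adjusted p = 2.5e-05) and −1.96 (SE 0.24, adjusted p = 0.00065). Ccl22, which draws CCR4-bearing T cells and dendritic cells, was at 195 and 191 CPM in Tut7-/- and 536 and 572 CPM in wild-type (−1.52 ± 0.2, adjusted p = 0.0014). It did not pass without wild-type replicate 2 (adjusted p = 0.061) or Tut7-/- replicate 2 (0.076). The most abundant chemokines were not called, with log2 fold changes of −0.27 for Cxcl10, −0.18 for Ccl5, −0.31 for Ccl4 and −0.59 for Ccl3 (adjusted p = 0.6, 0.79, 0.58 and 0.22). Of 13 alternative settings other than leaving out a library, 5 called Ccl3 lower, 3 Ccl4, 2 Ccl5 and 2 Cxcl10. The fit of the 4 LPS-treated libraries alone called 11 of 23 chemokine ligands lower and 3 higher. Of all genes in that fit 10% were lower and 5.63% higher.

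Cxcl1, Cxcl2 and Cxcl3 lie close together on chromosome 5 and carry the same 11-base site just upstream of their start sites. Their promoters are therefore shown, from 250 bases before to 50 bases after the RefSeq start in GRCm38.p6. Capitals mark the matches to the NF-κB consensus, which are a pair of 10-base matches, 1 on each strand, that overlap by all but 1 base and together read GGGAATTTCCC.
Cxcl1, chr5:90890995-90891294, plus strand: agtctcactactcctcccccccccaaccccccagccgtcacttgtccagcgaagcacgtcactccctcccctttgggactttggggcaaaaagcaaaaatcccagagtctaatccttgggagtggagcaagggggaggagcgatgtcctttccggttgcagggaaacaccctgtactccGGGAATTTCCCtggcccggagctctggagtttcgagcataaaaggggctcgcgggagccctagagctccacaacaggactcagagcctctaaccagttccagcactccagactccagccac
Cxcl2, chr5:90903649-90903948, plus strand: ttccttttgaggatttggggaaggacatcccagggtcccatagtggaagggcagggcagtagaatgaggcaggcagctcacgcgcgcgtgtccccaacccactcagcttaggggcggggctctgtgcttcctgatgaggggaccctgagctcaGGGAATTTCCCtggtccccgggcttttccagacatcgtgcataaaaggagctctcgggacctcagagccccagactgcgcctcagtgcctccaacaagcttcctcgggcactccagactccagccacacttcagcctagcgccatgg
Cxcl3, chr5:90785851-90786150, plus strand: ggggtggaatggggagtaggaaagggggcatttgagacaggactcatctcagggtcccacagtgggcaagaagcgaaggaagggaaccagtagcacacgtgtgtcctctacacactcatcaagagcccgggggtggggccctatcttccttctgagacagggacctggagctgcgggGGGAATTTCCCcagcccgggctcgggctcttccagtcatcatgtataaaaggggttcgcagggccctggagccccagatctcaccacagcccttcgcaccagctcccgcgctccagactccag
The 11-base site began 71, 97 and 73 bases before the start in Cxcl1, Cxcl2 and Cxcl3. Searched on both strands, the consensus was found in 12 of 70 promoters of lower genes (17.1%), in 5 of 58 promoters of higher genes (8.62%), in 10.2% of the 9262 promoters of tested genes and in 8.18% of all 27025 promoters of that length. The other lower genes with a match were Il6, Fos, Icosl, Hmgb2, Tnfaip2, Serpinh1, Col4a2, Rps6ka5 and Gm14023. The higher genes with a match were Ccr1, Fcgr3, Il4ra, Slfn1 and Ubald2. Il12b, Il1a and Ccl22, which were lower, had no match. Nfkbia and Zc3h12c, with a match each, were not called.

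Cytokine mRNAs fell in part. Of 34 tested cytokines 4 were lower and none was higher, namely Il6, Il12b, Il1a and Tnfsf14, and the list had a median log2 fold change of −0.58. Of its 34 values 24 were below 0, against 4571 of all 11501 tested genes. Of all tested genes 0.774% were lower and 0.626% higher. In the fit of the 4 LPS-treated libraries alone, 17 cytokines were called lower and 4 higher. Of all genes in that fit 10% were lower and 5.63% higher. Il6, which encodes interleukin-6, was at 303 and 241 CPM in Tut7-/- and 1032 and 979 CPM in wild-type (−1.89 ± 0.24, adjusted p = 0.0012), and did not pass without Tut7-/- replicate 2 (adjusted p = 0.076). Il12b, the shared p40 subunit of interleukin-12 and interleukin-23, was at 181 and 128 CPM in Tut7-/- and 313 and 369 CPM in wild-type (−1.14 ± 0.25, adjusted p = 0.031). Il1a, the alarmin interleukin-1α, was at 643 and 547 CPM in Tut7-/- and 1359.9 and 1325 CPM in wild-type (−1.17 ± 0.27, adjusted p = 0.044). In both the 2 genotypes were apart by more than the replicates of either, yet neither passed without any 1 of the 4 LPS-treated libraries. Tnfsf14, the ligand LIGHT, had 3 and 9 counts in the Tut7-/- libraries against 15 and 20 counts in the wild-type libraries (−2.41 ± 0.57, adjusted p = 0.0499), and did not pass in any of those 4 fits. Il1b, at 3329 and 3717 CPM in Tut7-/- and 5239 and 5566 CPM in wild-type, was not called (−0.62 ± 0.2, adjusted p = 0.17), nor was Tnf, at 878 and 918 CPM in Tut7-/- and 1425 and 1259 CPM in wild-type (−0.58 ± 0.19, adjusted p = 0.19). In neither Il1b nor Tnf did the genotypes overlap, and each was called lower in 6 of 13 alternative settings other than leaving out a library. Il1rn, the receptor antagonist that blocks interleukin-1, had a value of 0.64 ± 0.19, adjusted p = 0.14.

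Of 14 tested mRNAs that are described as Regnase-1 targets, 5 were lower (Il6, Il12b, Cxcl1, Cxcl2 and Cxcl3) and 1 was higher, and the list had a median log2 fold change of −0.56. Of all tested genes 0.774% were lower and 0.626% higher. The lower 5 targets also stand among the cytokines or chemokines above. The higher member was Lcn2, whose siderophore-binding product withholds iron from bacteria, at 70.6 and 84.3 CPM in Tut7-/- and 31.8 and 33.4 CPM in wild-type (1.25 ± 0.24, adjusted p = 0.02), which did not pass when any 1 LPS-treated library was left out (adjusted p up to 0.4). Ptgs2, the inducible prostaglandin synthase COX-2, had a value of −0.76 ± 0.21, adjusted p = 0.099. Of 12 alternative settings that tested it, leaving out a library aside, 7 called it lower. Zc3h12a itself was at 232 and 296 CPM in Tut7-/- and 248 and 227 CPM in wild-type, so the genotypes overlapped (0.15 ± 0.22, adjusted p = 0.83). Its sign turned, to −0.055, without Tut7-/- replicate 2, and, to −0.062, when length and GC content of the transcripts were corrected for. Zc3h12c, a paralog, was at 93.6 and 73 CPM in Tut7-/- and 139 and 113 CPM in wild-type (−0.6 ± 0.3, adjusted p = 0.42), and none of 14 tested Regnase, Roquin and AU-rich element binding genes passed. Because the study examined a stretch of the Il6 3′ UTR, the 2 inverted repeats found within that stretch are shown, read from the GENCODE transcript as RNA, with capitals for the bases between the paired arms. The search took 5 or more unbroken Watson-Crick pairs around 3 to 8 bases, so it is no prediction of a structure. Whether either repeat is part of the stem-loop that the study examined was not tested. Both have 5 pairs, and they lie at positions 66 to 79 and 87 to 102 of the 427-base 3′ UTR.
Il6 repeat at 66 to 79: gucagGUAUcugac
Il6 repeat at 87 to 102: guucuCUACGAagaac
The same search found 5 other places in this 3′ UTR.

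**Figure D2:**
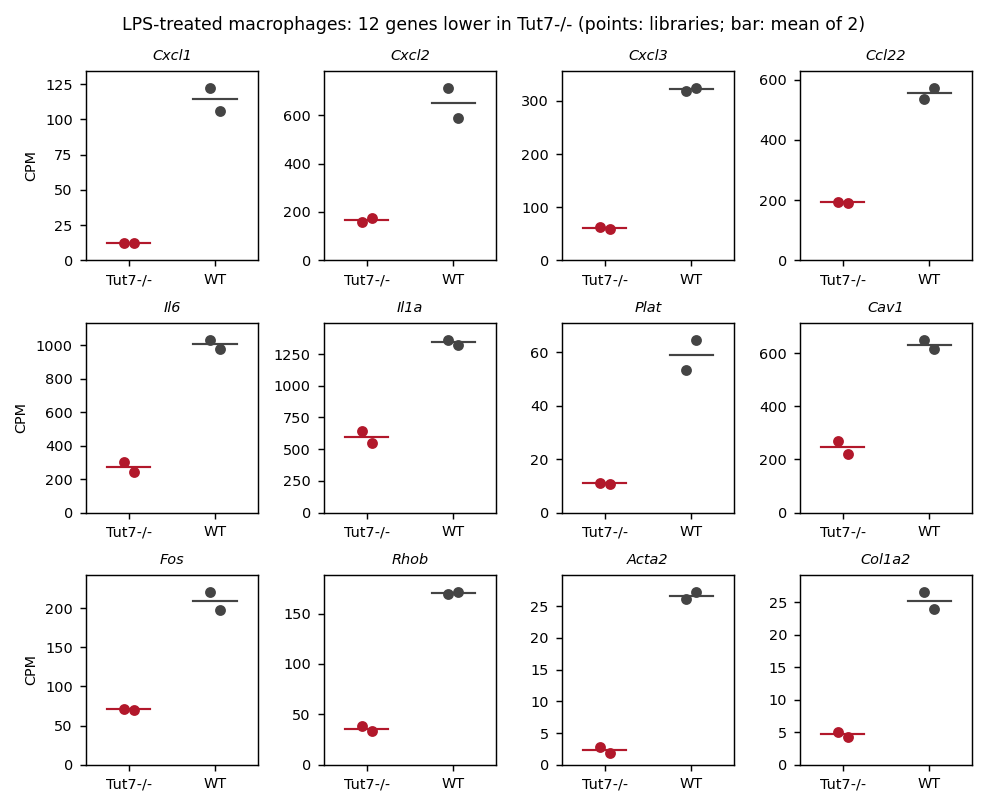
CPM of 12 genes lower in LPS-treated Tut7-/- BMDMs, with 1 point per library (Tut7-/- left, wild-type right) and a bar for the mean of 2, on axes that start at 0. In every panel both Tut7-/- points lie below both wild-type points, with the largest log2 fold changes in Acta2 (2.85 and 1.92 CPM against 26.1 and 27.2 CPM in wild-type) and Cxcl1 (12.5 and 12.2 CPM against 122 and 106 CPM in wild-type).

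Most of the immediate-early and feedback genes of signalling named here were lower. Of 23 tested AP-1, EGR and other immediate-early factors, Fos and Nr4a3 were lower and Jun was higher, and the list median was −0.27. In that list 17 of 23 values were below 0, as were 4571 of all 11501 tested genes. At an unadjusted p under 0.05, 9 were lower and 2 higher, against 5.64% and 7.23% of all tested genes. The fit of the 4 LPS-treated libraries alone called 8 of 19 lower and 2 higher. Of all genes in that fit 10% were lower and 5.63% higher. Fos, the partner of JUN in the AP-1 dimer, was at 71.3 and 70 CPM in Tut7-/- and 220.2 and 198 CPM in wild-type (−1.56 ± 0.2, adjusted p = 0.0011), whereas Jun was at 124 and 117 CPM in Tut7-/- and 69 and 57.7 CPM in wild-type (0.93 ± 0.21, adjusted p = 0.036). The mRNAs of these 2 AP-1 subunits were thus called in opposite directions, and in neither did the genotypes overlap. Nr4a3, an orphan nuclear receptor induced by many stimuli, was at 22 and 20.3 CPM in Tut7-/- and 55.5 and 54.7 CPM in wild-type (−1.38 ± 0.29, adjusted p = 0.029). Ppp1r15a, which encodes GADD34 and restores translation after stress by guiding the dephosphorylation of eIF2α, was at 36.5 and 36.2 CPM in Tut7-/- and 105 and 121 CPM in wild-type (−1.63 ± 0.22, adjusted p = 0.0014). Errfi1, an inhibitor of EGF receptor kinases, was at 28 and 34.9 CPM in Tut7-/- and 97.9 and 97.3 CPM in wild-type (−1.63 ± 0.23, adjusted p = 0.0018). Mycl, a member of the MYC family, was at 63.7 and 50.8 CPM in Tut7-/- and 183 and 198 CPM in wild-type (−1.74 ± 0.24, adjusted p = 0.0014). Cish, an inhibitor of STAT5 signalling, was the only 1 of 20 tested dual-specificity phosphatases and SOCS genes that passed, at 11.1 and 11.1 CPM in Tut7-/- and 37.2 and 32.4 CPM in wild-type (−1.65 ± 0.27, adjusted p = 0.0074). Rgs1 and Rgs16, which switch off signals of G protein-coupled receptors, had log2 fold changes of −1.41 (adjusted p = 0.014) and −1.35 (adjusted p = 0.043). Without 1 LPS-treated library, Fos and Ppp1r15a passed in 2 of 4 fits, failing for Fos without wild-type replicate 1 (adjusted p = 0.056) and Tut7-/- replicate 2 (0.073) and for Ppp1r15a without wild-type replicate 2 (0.065) and Tut7-/- replicate 2 (0.076), while Mycl failed without Tut7-/- replicate 2 (0.083) and wild-type replicate 2 (0.061). Errfi1 passed only without Tut7-/- replicate 2 (adjusted p = 0.043), Rgs1 only without Tut7-/- replicate 1 (0.039), and Jun, Nr4a3, Cish and Rgs16 passed in none of the 4 (adjusted p up to 0.54).

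Genes of the actin cytoskeleton moved in both directions. Rhob, an endosomal and stress-induced small GTPase, was at 38.1 and 33.2 CPM in Tut7-/- and 169 and 171 CPM in wild-type (−2.25 ± 0.22, adjusted p = 4.4e-05), and it passed in all 4 fits that left out an LPS-treated library (adjusted p up to 0.0067). Of 31 tested actin and contractility genes 3 were lower and 1 was higher. The lower ones were Acta2, Tpm2 and Cald1, which belong to smooth muscle and myofibroblasts. The higher one was Zyx, the focal adhesion protein zyxin, at 1116 and 1208 CPM in Tut7-/- and 651 and 617 CPM in wild-type (0.87 ± 0.2, adjusted p = 0.039). Evl, which binds zyxin and speeds actin filament growth, rose as well, at 232 and 264 CPM in Tut7-/- and 134 and 115 CPM in wild-type (0.99 ± 0.2, adjusted p = 0.023). Lsp1, a leukocyte F-actin binding protein, was at 196 and 188 CPM in Tut7-/- and 411 and 367 CPM in wild-type (−1.02 ± 0.22, adjusted p = 0.029). Apart from Rhob and Acta2, the called genes of this paragraph passed in none of those 4 fits (adjusted p up to 0.57).

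Genes of fibrous matrix were mostly lower. Of 11 tested fibroblast and stroma markers 6 were lower, none was higher, and all 11 had negative log2 fold changes, with a median of −1.85, against 0.1 over all tested genes. Acta2, smooth muscle actin, was at 2.85 and 1.92 CPM in Tut7-/- and 26.1 and 27.2 CPM in wild-type (−3.48 ± 0.32, adjusted p = 3.2e-05). Col1a1 and Col1a2, the chains of type I collagen, gave the same picture. Col1a1 was at 3.32 and 2.61 CPM in Tut7-/- and 20 and 13.8 CPM in wild-type (−2.53 ± 0.36, adjusted p = 0.0022), and Col1a2 at 5.06 and 4.26 CPM in Tut7-/- and 26.5 and 23.9 CPM in wild-type (−2.44 ± 0.29, adjusted p = 0.00065). Col5a2, Bgn and Sparc were the other 3, with log2 fold changes of −2.04, −1.85 and −1.67. Serpinh1, the collagen chaperone HSP47, was at 1.9 and 2.75 CPM in Tut7-/- and 10.2 and 9.5 CPM in wild-type (−2.07 ± 0.38, adjusted p = 0.012). Col4a1 and Col4a2, chains of basement membrane collagen, had −1.86 (adjusted p = 0.0046) and −1.23 (0.038). Another chain of that collagen type went the other way: Col4a5, chosen after its values were seen, was higher at 16.1 and 20.2 CPM in Tut7-/- and 5 and 6.55 CPM in wild-type (1.67 ± 0.38, adjusted p = 0.039). Fn1, fibronectin, was at 11.2 and 12.8 CPM in Tut7-/- and 45.5 and 33.8 CPM in wild-type (−1.73 ± 0.34, adjusted p = 0.02). Ctgf, a matrix-associated growth factor, had −1.77 (adjusted p = 0.018). These mRNAs were scarce: the 15 listed markers summed to 40.5 and 39.7 CPM in the Tut7-/- libraries, against 161 and 140 CPM in the wild-type libraries. Without LPS the sums were 39.5 and 39.8 CPM in Tut7-/- and 118 and 119 CPM in wild-type libraries, and 9 of the 11 tested markers were called lower there too. In bulk RNA, fewer cells of a type and less RNA per cell cannot be told apart. The part of these genes in the other results was not tested. Without 1 LPS-treated library Acta2 and Col1a2 passed in all 4 fits, Col1a1 failed without Tut7-/- replicate 2 (adjusted p = 0.076) and wild-type replicate 1 (0.1), Col4a1 passed only without wild-type replicate 2 (0.0496), and the other called genes of this paragraph passed in none.

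Surface and secreted proteins of other kinds were lower too. Plat, tissue plasminogen activator, was at 11.1 and 10.7 CPM in Tut7-/- and 53.5 and 64.6 CPM in wild-type (−2.43 ± 0.27, adjusted p = 0.00047), and passed without each LPS-treated library. Vegfc, a growth factor for lymphatic vessels, was at 6.49 and 6.59 CPM in Tut7-/- and 24.8 and 23.3 CPM in wild-type (−1.88 ± 0.3, adjusted p = 0.0053). Pdgfb, a platelet-derived growth factor chain that macrophages secrete, was at 102 and 107 CPM in Tut7-/- and 266 and 259.9 CPM in wild-type (−1.33 ± 0.2, adjusted p = 0.0033). Axl, a receptor kinase for the bridging protein GAS6 in the clearance of dead cells, was at 305 and 320.1 CPM in Tut7-/- and 714 and 674 CPM in wild-type (−1.15 ± 0.22, adjusted p = 0.015). Icosl, the ligand of the T cell costimulator ICOS, was at 92.2 and 88 CPM in Tut7-/- and 204 and 197 CPM in wild-type (−1.15 ± 0.2, adjusted p = 0.01). Cd24a, a glycosylated surface antigen, had 2 and 4 counts in the Tut7-/- libraries against 12 and 16 in the wild-type libraries (−3.05 ± 0.62, adjusted p = 0.023). Ccr2, the receptor by which monocytes leave the marrow, was at 12.2 and 9.33 CPM in Tut7-/- and 26.5 and 22 CPM in wild-type (−1.18 ± 0.26, adjusted p = 0.037). Itgb7 and Itgb8, integrin β chains, had log2 fold changes of −1.62 (adjusted p = 0.01) and −1.51 (0.031). Cav1, the coat protein of caveolae, was at 271 and 220.0 CPM in Tut7-/- and 649.6 and 616 CPM in wild-type (−1.37 ± 0.25, adjusted p = 0.012). Apart from Plat, none of these passed in any of the 4 fits that left out 1 LPS-treated library (adjusted p up to 0.56).

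Of 44 tested genes of DNA replication and mitosis 2 were lower and none was higher, and the list median was 0.35. They were Mki67, the proliferation antigen Ki-67, at 22.9 and 19.4 CPM in Tut7-/- and 54.4 and 50.8 CPM in wild-type (−1.32 ± 0.26, adjusted p = 0.02), and Hmgb2, a chromatin protein, at 35 and 32.8 CPM in Tut7-/- and 83.1 and 72.7 CPM in wild-type (−1.2 ± 0.24, adjusted p = 0.02). Genes of other cell functions were also lower, among them Sirt1, a NAD-dependent deacetylase (−1.12, adjusted p = 0.044), Dnm1l, the GTPase that divides mitochondria (−1.27, 0.012), Tpr, a nuclear pore protein (−1.03, 0.035), and Appl1, an endosomal adaptor (−1.14, 0.029). These 4 were chosen after their values were seen, and none of the 6 genes passed when any 1 LPS-treated library was left out (adjusted p up to 0.55). Transcript GC content moved with the genotype difference. Tested genes were split into 5 equal bins by GC content. The median log2 fold change was −0.14 in the lowest bin and 0.08, 0.15, 0.18 and 0.18 in the next 4. The lowest bin held 34 of the 88 lower genes with a GC value and 5 of the 71 higher ones. Among untreated libraries the median was −1.15 in the lowest and 0.61 in the highest bin. When length and GC content were corrected for, a choice made after the data were seen, 663 genes were called, 238 higher and 425 lower, and these held 159 of the 161, since Rn45s and Erdr1 were not in that fit.

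The genes that were higher in Tut7-/- BMDMs included macrophage genes and surface receptors. Folr2, a folate receptor of tissue macrophages, was at 424 and 450.2 CPM in Tut7-/- and 158 and 171 CPM in wild-type (1.41 ± 0.25, adjusted p = 0.012). Mfge8, a bridge between dead cells and integrins of the phagocyte, was at 211 and 238 CPM in Tut7-/- and 65.5 and 83.2 CPM in wild-type (1.6 ± 0.24, adjusted p = 0.0032). Of 37 tested CD300, Siglec and C-type lectin receptors, a list that also holds Fc receptors, 3 were higher and none was lower, with a median of 0.2. Cd300lb, an activating receptor, was at 21.8 and 24 CPM in Tut7-/- and 6.31 and 2.29 CPM in wild-type (2.32 ± 0.33, adjusted p = 0.0018). Siglecf, a receptor for sialic acids, was at 7.12 and 8.24 CPM in Tut7-/- and 1.52 and 1.64 CPM in wild-type (2.28 ± 0.46, adjusted p = 0.021). Fcgr3, a low-affinity receptor for IgG, was at 765 and 856 CPM in Tut7-/- and 404 and 406 CPM in wild-type (1 ± 0.23, adjusted p = 0.039). Levels of the 3 genes differed widely, yet in each the lower Tut7-/- library was above the higher wild-type library. Il4ra, the receptor chain for interleukin-4 and interleukin-13, was at 1467 and 1699.9 CPM in Tut7-/- and 777 and 718 CPM in wild-type (1.08 ± 0.22, adjusted p = 0.022). Ly86, which encodes MD-1, the partner of the TLR4 homolog RP105, was at 321 and 354 CPM in Tut7-/- and 171 and 149 CPM in wild-type (1.08 ± 0.23, adjusted p = 0.028). Of 15 tested chemoattractant receptors 2 were higher and 1, Ccr2, was lower. The first of the higher ones was Ccr1, a receptor for CCL3 and CCL5, at 37.8 and 27.2 CPM in Tut7-/- and 12 and 8.52 CPM in wild-type (1.64 ± 0.3, adjusted p = 0.012). The other was Cmklr1, the chemerin receptor, at 16.8 and 20.6 CPM in Tut7-/- and 6.31 and 2.95 CPM in wild-type (1.95 ± 0.41, adjusted p = 0.027). Cd300lb did not pass without wild-type replicate 2 (adjusted p = 0.08), and Mfge8 only passed without Tut7-/- replicate 1 (0.028). Folr2, Siglecf, Fcgr3, Il4ra, Ly86, Ccr1 and Cmklr1 passed in none of these 4 fits (up to 0.51).

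**Figure D3:**
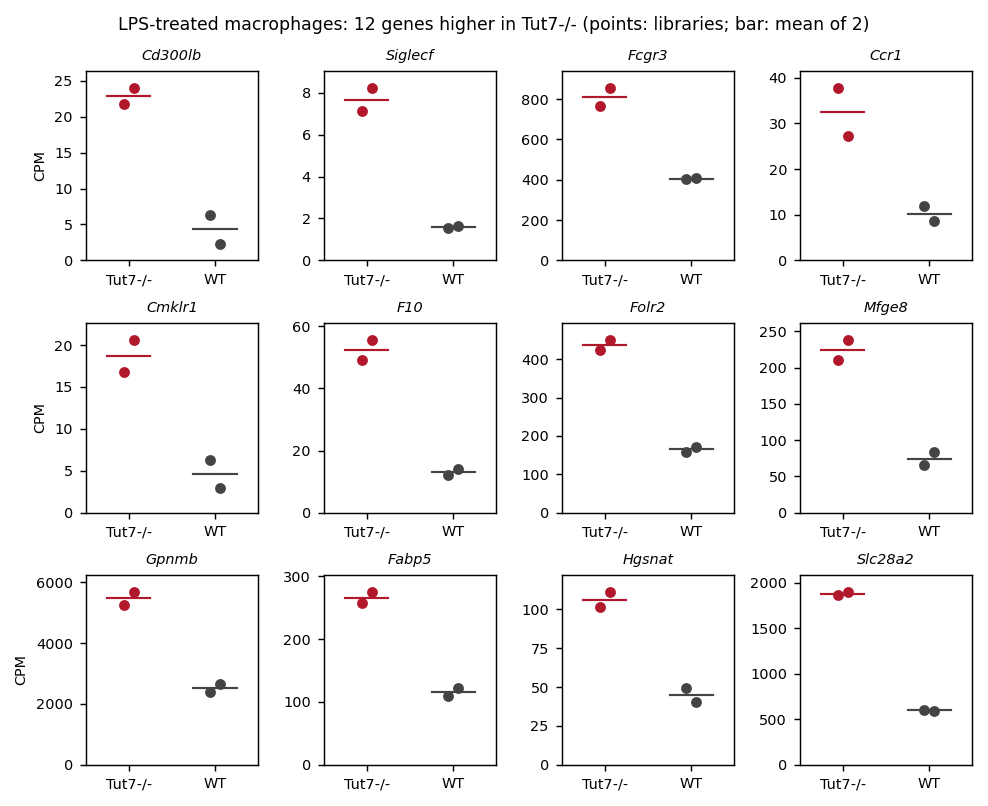
CPM of 12 genes higher in LPS-treated Tut7-/- BMDMs, with 1 point per library (Tut7-/- left, wild-type right) and a bar for the mean of 2, on axes that start at 0. Both Tut7-/- points lie above both wild-type points in every panel, at levels between 7.12 and 8.24 CPM in Tut7-/- for Siglecf and between 5263 and 5669.9 CPM in Tut7-/- for Gpnmb.

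Lysosomal and lipid genes had mostly positive log2 fold changes. No member of a list of 43 lysosomal hydrolases and V-ATPase subunits was called by edgeR. At an unadjusted p under 0.05, 13 were higher and 1 was lower, where 12.9% of all tested genes passed, 7.23% higher and 5.64% lower. In the fit of the 4 LPS-treated libraries alone, which tested 42 of them, 13 were called higher and 2 lower. Of all genes in that fit 5.63% were higher and 10% lower. Of the 43, 39 had a positive log2 fold change, with a median of 0.29. Of all 11501 tested genes 6900 had a positive value. Ctsb and Ctsd, cathepsins of that list, had log2 fold changes of 0.29 and 0.38 (adjusted p = 0.58 and 0.51). Called genes outside that list also act in or for lysosomes, and 5 of them, chosen after their values were seen, follow. Hgsnat, which acetylates heparan sulfate for its breakdown, was at 101 and 111 CPM in Tut7-/- and 49.2 and 40.3 CPM in wild-type (1.24 ± 0.23, adjusted p = 0.012). Cln8, a membrane protein that helps lysosomal enzymes leave the endoplasmic reticulum, was at 44.8 and 51.9 CPM in Tut7-/- and 20.7 and 18.7 CPM in wild-type (1.29 ± 0.22, adjusted p = 0.009). Tpcn2, a cation channel of lysosomes, was at 29.6 and 27 CPM in Tut7-/- and 11.3 and 13.1 CPM in wild-type (1.22 ± 0.24, adjusted p = 0.02). Pla2g15, a lysosomal phospholipase, was at 51.3 and 61.1 CPM in Tut7-/- and 28.7 and 27.2 CPM in wild-type (1 ± 0.23, adjusted p = 0.044). Ctns, the cystine exporter, was at 5.06 and 6.59 CPM in Tut7-/- and 1.09 and 1.97 CPM in wild-type (2 ± 0.43, adjusted p = 0.03). Of 24 tested lipid-associated macrophage and cholesterol efflux genes 2 were higher and none was lower, with 19 of 24 values above 0 and a median of 0.35. Gpnmb, a glycoprotein of lysosome-rich macrophages, was at 5263 and 5669.9 CPM in Tut7-/- and 2386 and 2642 CPM in wild-type (1.12 ± 0.2, adjusted p = 0.011). Fabp5, a carrier of fatty acids, was at 257 and 275 CPM in Tut7-/- and 109.6 and 122 CPM in wild-type (1.2 ± 0.24, adjusted p = 0.023). Apoe, at 4914 and 5278 CPM in Tut7-/- and 2809 and 2833 CPM in wild-type, did not pass (0.85 ± 0.21, adjusted p = 0.062). It was called higher in 8 of 13 alternative settings other than leaving out a library. Scarb1, a receptor for HDL, and Lipg, endothelial lipase, both outside the list and chosen after their values were seen, were higher by 1.26 (adjusted p = 0.018) and 0.97 (0.02). None of the called genes of this paragraph passed in any of the 4 fits that left out 1 LPS-treated library (adjusted p from 0.081 to 0.59).

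Transport, metabolism and coagulation genes were also among those higher. Slc28a2, a sodium-coupled nucleoside carrier, was at 1866 and 1896 CPM in Tut7-/- and 604 and 595 CPM in wild-type (1.65 ± 0.21, adjusted p = 0.00092). Slc16a1, the lactate carrier MCT1, was at 44.6 and 46.7 CPM in Tut7-/- and 22.2 and 19.3 CPM in wild-type (1.13 ± 0.25, adjusted p = 0.032). In the other direction were Slc40a1, the iron exporter ferroportin, at 1.9 and 3.71 CPM in Tut7-/- and 8.48 and 12.1 CPM in wild-type (−1.83 ± 0.39, adjusted p = 0.029), and Slc7a11, the cystine importer, at 79.6 and 61.8 CPM in Tut7-/- and 174 and 157 CPM in wild-type (−1.23 ± 0.23, adjusted p = 0.013). Of 190 tested solute carriers 3 were higher and 2 were lower in all. Arg2, the mitochondrial arginase, had 30 and 55 counts in the Tut7-/- libraries and 6 and 4 in the wild-type libraries (2.23 ± 0.52, adjusted p = 0.048). Nos2, inducible nitric oxide synthase, which competes for the same substrate, was not called (0.58, adjusted p = 0.22). Xdh, which makes uric acid, was at 774 and 764 CPM in Tut7-/- and 351 and 347 CPM in wild-type (1.14 ± 0.22, adjusted p = 0.018). F10, coagulation factor X, was at 49.2 and 55.6 CPM in Tut7-/- and 12.2 and 14.1 CPM in wild-type (2 ± 0.28, adjusted p = 0.0016). Bcl2l1, which encodes the survival protein BCL-XL, was at 72.8 and 99.7 CPM in Tut7-/- and 37.6 and 33.1 CPM in wild-type (1.28 ± 0.24, adjusted p = 0.016). Without 1 LPS-treated library, Slc28a2 failed without wild-type replicate 1 (adjusted p = 0.1) and 2 (0.079), F10 without wild-type replicate 1 (0.11) and 2 (0.061), and the other called genes of this paragraph in all 4 fits (up to 0.59).

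Of 39 tested Rab GTPases, which direct membrane traffic, 2 were higher and none was lower, Rab43 at 153 and 169.5 CPM in Tut7-/- and 54.2 and 51.4 CPM in wild-type (1.61 ± 0.24, adjusted p = 0.0034) and Rab31 at 198 and 217 CPM in Tut7-/- and 119 and 102 CPM in wild-type (0.91 ± 0.21, adjusted p = 0.048). Rab7b, a late endosomal Rab that the list did not hold, was at 49.4 and 60.8 CPM in Tut7-/- and 24.1 and 22 CPM in wild-type (1.25 ± 0.23, adjusted p = 0.014). Other called genes of membrane traffic, chosen after their values were seen, were Stx3, a plasma membrane SNARE (1.02, adjusted p = 0.043), Uvrag, a regulator of autophagosome maturation (1.17, 0.029), and Cyth4, an exchange factor for ARF GTPases (1.21, 0.0094). Fnip2, a partner of folliculin at the lysosome, was at 180.2 and 173 CPM in Tut7-/- and 47.6 and 41.3 CPM in wild-type (1.99 ± 0.42, adjusted p = 0.029). Among transcriptional regulators, Arid3a, a DNA-binding protein of the ARID family, was at 18.3 and 23.6 CPM in Tut7-/- and 6.74 and 6.23 CPM in wild-type (1.69 ± 0.35, adjusted p = 0.028). Ets2 and Hlx had log2 fold changes of 0.91 and 0.98 (adjusted p = 0.048 and 0.032). Cbx7, a Polycomb protein, had 4 and 7 counts in the Tut7-/- libraries against 21 and 12 in the wild-type libraries (−2.39 ± 0.46, adjusted p = 0.018). Scimp, a transmembrane adaptor of TLR signalling, was at 19.5 and 24.2 CPM in Tut7-/- and 6.53 and 5.9 CPM in wild-type (1.8 ± 0.36, adjusted p = 0.02). Rab43 passed only without Tut7-/- replicate 1 (adjusted p = 0.033), and the other called genes of this paragraph in none of the 4 fits that left out 1 LPS-treated library.

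Lists of the LPS response are read against the 1.4% of all tested genes that were called. Of 42 type I interferon-induced genes 1 passed, Slfn1, a Schlafen family gene that was higher at 195 and 197 CPM in Tut7-/- and 110.1 and 89.8 CPM in wild-type (0.97 ± 0.21, adjusted p = 0.029), and the list median was 0.01. Slfn4, a relative outside the list, was at 644 and 572 CPM in Tut7-/- and 255 and 213 CPM in wild-type (1.38 ± 0.3, adjusted p = 0.031). Of 19 tested guanylate-binding and immunity-related GTPases 1 passed, the giant GTPase gene Gvin1, which was lower at 1467 and 1268 CPM in Tut7-/- and 2519 and 2732 CPM in wild-type (−0.94 ± 0.21, adjusted p = 0.037). At an unadjusted p under 0.05 the interferon list gave 2 lower and 2 higher, and the GTPase list 4 lower and 0 higher. In the fit of the 4 LPS-treated libraries alone, 10 of 42 interferon-induced genes were called lower and 3 higher. That fit called 5 of the 19 GTPase genes lower and 0 higher, and of all its genes 10% lower and 5.63% higher. None of 24 NF-κB subunits and feedback inhibitors passed, although 21 of 24 had a negative value and the median was −0.13. Of all 11501 tested genes 4571 had a negative value. Nfkbia, which encodes IκBα, was at 1609.5 and 1689 CPM in Tut7-/- and 1714 and 1613 CPM in wild-type, so the genotypes overlapped (−0.01 ± 0.19, adjusted p = 0.99). Tnfaip3, the feedback inhibitor A20, had a value of −0.4 ± 0.21, adjusted p = 0.46, and Tnfaip2, an abundant TNF-inducible gene that no list holds, was at 2755 and 2717 CPM in Tut7-/- and 5244 and 5346 CPM in wild-type (−0.95 ± 0.2, adjusted p = 0.029). Slfn1, Slfn4, Gvin1 and Tnfaip2 did not pass when any 1 LPS-treated library was left out (adjusted p up to 0.57). By other rules the NF-κB list gave 3 lower and 1 higher at an unadjusted p under 0.05, a share near the 12.9% of all tested genes. It gave 10 lower and 2 higher in the fit of the 4 LPS-treated libraries alone. Of all genes in that fit 10% were lower and 5.63% higher. None of 9 tested MHC class II genes and cofactors passed either, with a median of −0.72, 5 lower at an unadjusted p under 0.05 (5.64% of all tested genes) and 6 lower in the fit of the 4 libraries. H2-Ab1 and Cd74, the invariant chain, are examples. H2-Ab1 was at 145 and 166 CPM in Tut7-/- and 318 and 311 CPM in wild-type (−1.01 ± 0.25, adjusted p = 0.063), and Cd74 at 768 and 836 CPM in Tut7-/- and 1369.5 and 1268 CPM in wild-type (−0.72 ± 0.2, adjusted p = 0.11). In 13 alternative settings other than leaving out a library, H2-Ab1 was called lower in 11 and Cd74 in 6. None of 76 ribosomal protein genes and none of 75 nuclear-encoded respiratory chain subunits passed, with medians of 0.13 and 0.18, and at an unadjusted p under 0.05 these gave 0 and 1. Of 10 dendritic cell markers 4 were tested and 2 of them, Ccl22 and Cd24a, were lower. Itgax went the other way, at 0.97. It was not called in the main fit but was called higher in 7 of 13 alternative settings other than leaving out a library. The fit of the 4 libraries alone gave 1 member higher and 2 lower. The list summed to 262 and 267 CPM in the Tut7-/- libraries against 592 and 625 CPM in the wild-type libraries. Of these sums, Ccl22 alone made up 195 and 191 CPM in Tut7-/- and 536 and 572 CPM in wild-type libraries.

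**Figure D4:**
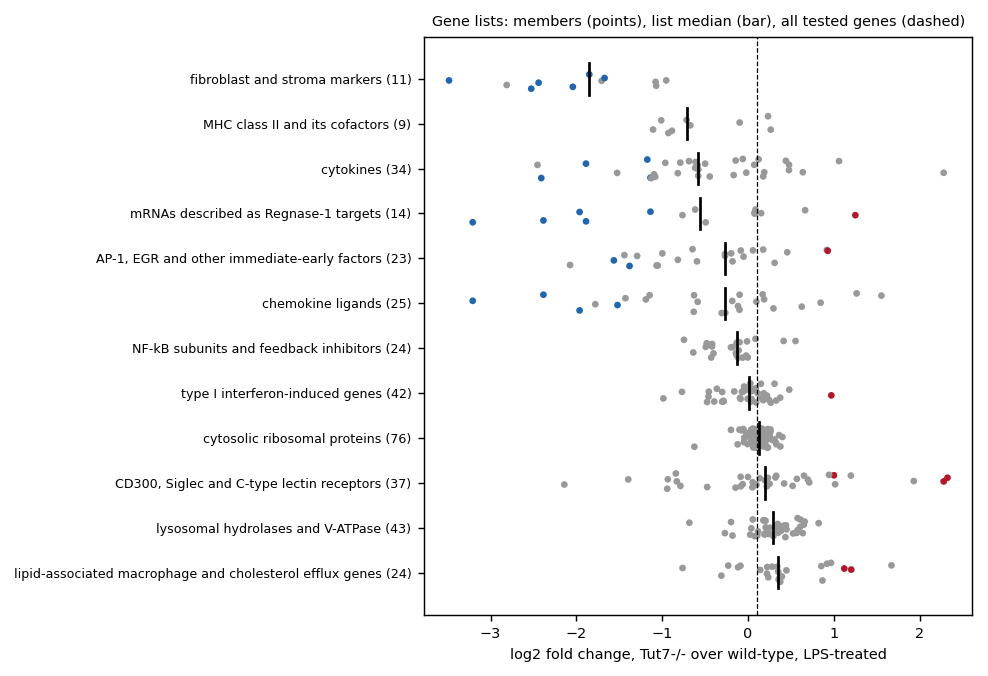
Log2 fold changes, Tut7-/- over wild-type with LPS, of the tested members of 12 gene lists (number in brackets), with called members in blue (lower) or red (higher), a bar for each list's median and a dashed line for the median of all tested genes at 0.1. The stroma list lies wholly below 0 with a median of −1.85, while the interferon list is centred on 0.01 and the lipid-associated list on 0.35.

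The genotype effect without LPS was measured in 4 other libraries, so it can be set beside the effect with LPS without sharing a library. Both effects came from 1 model with a shared estimate of each gene's spread. Being called in 1 setting is therefore not independent of being called in the other. Of the 161 called genes 137 (85.1%) had the same sign in untreated BMDMs, against 64.6% of all tested genes, and 86 (53.4%) were called in the same direction there, against 27.5% of all tested genes. Far more genes were called without LPS, 4259 of 11501 (37%), of which 1707 rose (14.8%) and 2552 fell (22.2%). Mfge8 was at 542 and 385 CPM in Tut7-/- and 104 and 85 CPM in wild-type without LPS, a log2 fold change of 2.3 (adjusted p = 0.00011), beside 1.6 with LPS. F10 had 2.7 without and 2 with LPS, Fabp5 1.92 and 1.2, and Folr2 2.07 and 1.41. Acta2 had −2.2 and −3.48, and Adgre4, an adhesion receptor of myeloid cells, −2.77 and −1.68. The difference between the effects was itself called for 517 of 11501 genes (4.5%) and for 26 of the 161 (16.1%). Among the called differences, the effect with LPS was above that without LPS in 467 (4.06% of tested genes) and below it in 50 (0.435%). Rhob was at 169.7 and 156 CPM in Tut7-/- and 107 and 86.8 CPM in wild-type without LPS (0.75, adjusted p = 0.011), so it was higher without and lower with LPS, a difference of −3 (SE 0.29, adjusted p = 0.00037). Ppp1r15a was at 30.7 and 27.8 CPM in Tut7-/- and 19 and 22.7 CPM in wild-type without LPS, a difference of −2.11 (SE 0.31, adjusted p = 0.011). Cd300lb was at 344 and 327 CPM in Tut7-/- and 284 and 326 CPM in wild-type without LPS, a difference of 2.19 (SE 0.41, adjusted p = 0.02). Ccr2 was lower in both settings, at 8.48 and 8.94 CPM in Tut7-/- and 82.2 and 69.2 CPM in wild-type without LPS, and its difference of 1.93 (SE 0.36, adjusted p = 0.02) means that its drop was smaller with LPS. The count of called differences fell to 1 when either wild-type library with LPS was left out, 3 without LPS-treated Tut7-/- replicate 1 and 2 without untreated wild-type replicate 1, against 3483 without untreated Tut7-/- replicate 2.

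**Figure D5:**
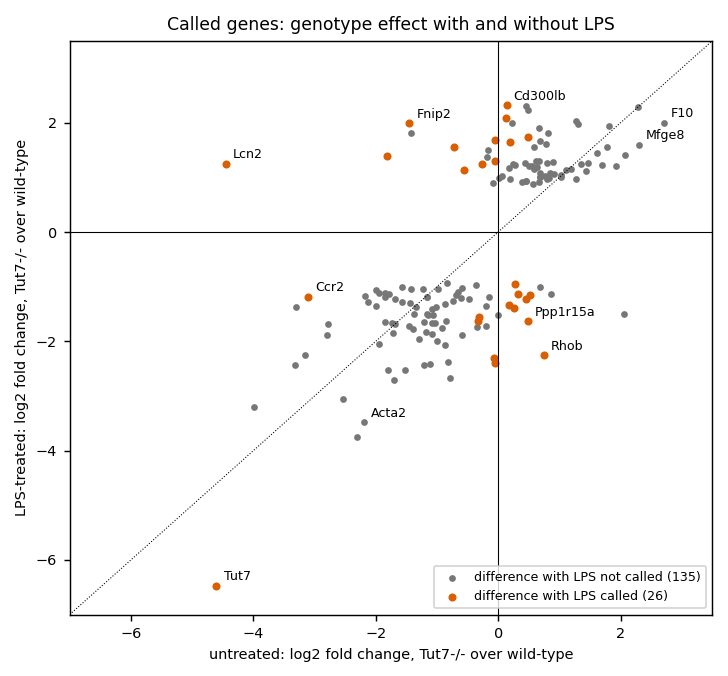
For the 161 called genes, the log2 fold change, Tut7-/- over wild-type, without LPS (x axis) and with LPS (y axis), with a dotted line of equal effects. Points in orange are the 26 genes whose difference between the effects was called, such as Rhob at 0.75 without and −2.25 with LPS, and 137 of 161 points lie at the lower left or upper right.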

How the data were processed

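RNA sequencing data of 8 libraries were analysed, 2 for each of LPS-treated Tut7-/-, LPS-treated wild-type, untreated Tut7-/- and untreated wild-type BMDMs. The authors sequenced poly(A)-selected RNA as 75 nt reads, mapped them to RefSeq RNA of mm10 with FANSe3 and deposited, for each gene symbol and library, a raw read count and an RPKM value. The deposited counts were the main measurement, and the deposited RPKM values were used only in alternatives, as log2(RPKM + 1) or log2(RPKM + 0.1). Columns with the authors' own fold changes and p-values were not used. Samples were grouped by their labels.

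Counts were filtered with filterByExpr by group, scaled with TMM and fitted with edgeR 4.0.16 (R 4.3.3, glmQLFit with robust dispersion, glmQLFTest) in 1 model of 4 groups, with 4 residual degrees of freedom. Contrasts were Tut7-/- minus wild-type with LPS, the same without LPS, and their difference. P-values were adjusted by Benjamini-Hochberg over 11501 genes, and a gene was called at an adjusted p under 0.05. The standard error (SE) is the log2 fold change over the square root of its F statistic. The code was tested on simulated data. With 2 libraries against 2, an exact permutation test cannot give a two-sided p below 0.33, so none was run. Raw totals were 3767900 to 9394632 counts per library, the fewest in LPS-treated wild-type replicate 2. Each gene's spread was estimated over all 4 groups together, and replicates did not scatter alike in them. The mean chi-square per gene between the 2 replicates was 42.4 in untreated Tut7-/- and 20.6 in untreated wild-type BMDMs. With LPS it was 6.8 in Tut7-/- and 2.58 in wild-type BMDMs.

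The libraries and gene lists were chosen with earlier results of these data known. Genes were named if they were Tut7 or its neighbours within 500 kb, among the 15 highest or 15 lowest called genes with a mean of at least 20 counts, called members of a list, abundant or defining uncalled members, or named in the study. Other called genes, such as Errfi1, Ppp1r15a, Folr2 and Mfge8, were named after their values were seen. A few genes fitting it are left out of the text and not reported here.

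Other settings tried were scaling by DESeq2's size factors or by library size, other filters, the 4 LPS-treated libraries alone, a replicate block, edgeR's exact test, DESeq2 1.42.0, limma 3.58.1 on RPKM, leaving out each library, and, added after seeing the data, a fit corrected for length and GC content of the transcripts. Promoter sequences are from RefSeq (GRCm38.p6), and transcripts are from GENCODE.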

Additional observations from a re-analysis of the deposited data

Results flagged for a closer look

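For 26 of the 161 genes called with LPS, the genotype effect with LPS differed from that without LPS by a test of the difference itself (edgeR's quasi-likelihood test, adjusted over 11501 genes, of which 4.5% were called). Values below are the log2 fold change, Tut7-/- over wild-type, with LPS minus that without LPS. Among the genes that were lower with LPS, the difference was −3 for Rhob, −2.33 for Cbx7, −2.23 for Hspbap1, −2.11 for Ppp1r15a, −1.87 for Tut7 (Zcchc6), −1.68 for Phldb1, −1.67 for Icosl, −1.65 for Oaf, −1.51 for Pdgfb, −1.46 for Rcsd1, −1.3 for Errfi1, −1.25 for Fos and −1.23 for Tnfaip2. In Ccr2, also lower with LPS, it was 1.93. Among the genes that were higher with LPS, it was 5.7 for Lcn2, 3.44 for Fnip2, 3.21 for I830077J02Rik, 2.27 for Fancl, 2.19 for Cd300lb, 1.96 for Lhfpl2, 1.74 for Arid3a, 1.7 for Slc16a1, 1.51 for Rab7b, 1.45 for Slc28a2 and 1.35 for Rnf149. The value for Tut7 sets 2 depleted groups against wild-type levels that were higher with LPS, with 2.85 and 2.61 CPM in Tut7-/- and 253 and 235 CPM in wild-type libraries with LPS, and 2.09 and 2.04 CPM in Tut7-/- and 47 and 53.9 CPM in wild-type libraries without it. Lcn2 rested on 70.6 and 84.3 CPM in Tut7-/- and 31.8 and 33.4 CPM in wild-type with LPS, and on 0 and 0 CPM in Tut7-/- and 0.33 and 0.351 CPM in wild-type without it. With both untreated Tut7-/- libraries at 0, the value of 5.7 depends on the prior count and is no bound.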

How the results depend on the processing

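The 161 genes called with LPS (72 higher, 89 lower) kept their sign in every alternative that tested them. Leaving out a library aside, 57 were called in each alternative that tested them. Not all 57 were tested in all 13 of these: Cxcl1 and Plat, for example, were tested in 12. The count was 80 (30 higher, 50 lower) with library size alone, 377 (184 and 193) with no filter beyond 1 count, 86 (23 and 63) with at least 10 counts in every library, where 45 of the 161 were not tested, 1580 (568 and 1012) in the 4 LPS-treated libraries alone, 703 (221 and 482) without the 2 untreated Tut7-/- libraries, 1837 (690 and 1147) with edgeR's exact test, 278 (86 and 192) with DESeq2's Wald test, 94 (47 and 47) with limma on log2(RPKM + 0.1), 663 (238 and 425) with the length and GC correction, and 192 (54 and 138) with DESeq2's size factors. Leaving out each library in turn gave 14 to 761 called genes, 0 to 391 higher and 11 to 411 lower, the largest counts without an untreated Tut7-/- library. The cause of these shifts was not tested.

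Without LPS, 4259 genes were called, 2496 with the length and GC correction, and 1739 to 6350 with 1 library left out. The 517 called differences between the effects became 241 with DESeq2's size factors, 1355 with no filter, 185 with at least 10 counts, 1325 with limma on log2(RPKM + 1), and 1 to 3483 with 1 library left out. Called list members, 60 in all, numbered 34 with library size alone, 114 with no filter, 29 with at least 10 counts, 368 in the 4 libraries alone, 190 without the untreated Tut7-/- libraries, 405 with the exact test, 103 with DESeq2's Wald test, 37 with limma on log2(RPKM + 0.1), 197 with the length and GC correction, and 11 to 195 with 1 library left out. Uncalled genes whose sign turned were Nfkbia, at 0.014 with no filter and −0.076 to 0.0037 with 1 library left out, and Zc3h12a, at −0.055 to 0.28 with 1 library left out and −0.062 with the length and GC correction.

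Whether replicate numbers pair the libraries is not stated in the labels, and the values here cannot decide it. Same-numbered libraries of LPS-treated Tut7-/- and wild-type BMDMs had a correlation of deviations of 0.03. Over all pairs of groups it went from −0.2, between the 2 Tut7-/- groups, to 0.31, between the 2 untreated groups. A replicate block gave 177 called genes, 78 higher and 99 lower. The block with the length and GC correction gave 620, 228 higher and 392 lower, with 2477 called without LPS, 185 called list members and −0.074 for Zc3h12a. Depth limits scarce genes most: Tnfsf14, Cd24a and Cbx7 were called on 2 to 21 counts per LPS-treated library.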

Other observations

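Other gene lists held no called member with LPS. At an unadjusted p under 0.05, 12.9% of all tested genes passed, 7.23% higher and 5.64% lower, and the counts below are read against that. Of all 11501 tested genes, 6900 had a positive and 4571 a negative log2 fold change. Of 17 tested heat shock protein genes, 14 had a negative log2 fold change, Tut7-/- over wild-type, with a median of −0.33, and 6 were lower and 0 higher at an unadjusted p under 0.05. Of 20 tested MHC class I and immunoproteasome genes, 16 were positive with a median of 0.12, and none passed at an unadjusted p under 0.05. Of 20 tested let-7 target genes 13 were positive, a share near that of all tested genes, with a median of 0.3. At an unadjusted p under 0.05, 5 of them were higher and 1 lower. Of 331 tested Zfp and Zbtb zinc-finger genes, 9 were higher and 20 lower at an unadjusted p under 0.05, a smaller share than of all tested genes, with a median of −0.03 with LPS and −0.88 without LPS, where 21 were called higher and 133 lower. All counts in this paragraph are from edgeR's quasi-likelihood test, and the median of all tested genes was 0.1 with LPS.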
